A study of Mus musculus with 10 samples.

Results

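The 34 genes described here encode the enzymes that make sterols and fatty acids in mouse cells, with the proteins that switch those enzymes on and a carrier that moves sterol between membranes. They were taken as a list of named genes, matched to the count table by the Ensembl identifier behind each symbol. All 34 were among the 43432 genes of the table and all 34 were among the 14172 genes with enough reads to test. Their expression was measured by RNA sequencing of polyadenylated RNA in RAW264.7 cells, a mouse macrophage line, in 5 conditions of 2 libraries each. In every well 250000 cells were plated and left overnight. The DMSO libraries came from cells given solvent only (0.5% DMSO) and served as resting cells. The DMSO + LPS libraries came from cells given the same solvent and lipopolysaccharide (LPS) at 1 µg/mL, a bacterial outer membrane component that activates macrophages, and are also called LPS alone. The remaining conditions received the same LPS together with compound **1** at 3.2, 10 or 32 µM, given 1 h ahead of LPS, and RNA was extracted after 12 h in all conditions. Compound **1** is 9-keto-hexadec-7-enoic acid with an E double bond at carbon 7, a fatty acid isolated from a marine cyanobacterial mat. No library had the compound without LPS, so its effect was measured in LPS-treated cells only. The 2 libraries of a condition carry biological replicate numbers, nothing states that they came from separate cultures, and the p-values may therefore cover technical spread only. In a bulk culture, fewer cells carrying a transcript and less transcript per cell cannot be told apart.

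Cholesterol and fatty acids are both built from cytosolic acetyl-CoA. The mevalonate pathway joins acetyl-CoA units into isoprenoids and then squalene, and a further chain of enzymes closes squalene into lanosterol and trims it to cholesterol. Fatty acid synthase makes palmitate, which elongases lengthen and desaturases give double bonds. Many of these genes are switched on by the SREBP transcription factors. SREBP precursors are carried from the endoplasmic reticulum by SCAP when sterol is low and are held there by INSIG proteins when sterol is high. In activated macrophages the same lipids feed membranes, lipid mediators and oxysterols.

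The libraries held between 45966803 and 58976377 counts, and at a level of 5 CPM (counts per 1000000) the counting error in the smallest library was 6.6%. Values per library are given in CPM after scaling between libraries by the trimmed mean of M-values (TMM). All 8 macrophage markers examined were present in every library, the lowest at 15.5 CPM. LPS and compound **1** acted on genes known to respond to them: Nos2, the inducible nitric oxide synthase, went from 0.0340 and 0 CPM in DMSO to 209.6 and 202 in DMSO + LPS and was 44.8 and 45.6 at 32 µM. Nqo1, a quinone reductase under Nrf2 control, was 2.65 and 2.58 CPM in DMSO + LPS and 16.3 and 16.1 at 32 µM. The macrophage markers themselves moved, with 4 of 8 higher and 2 lower with LPS (25.2% and 25.8% of all genes), and 1 higher and 5 lower at 32 µM (4.06% and 5.72%), and their part in the results below was not tested. Replicate 1 at 10 µM stood apart. Its summed level of 10 markers of other cell types was 35.6 CPM, led by the epithelial keratin Krt8 at 22.3 CPM, against 5.80 in replicate 1 at 3.2 µM and 0.493 to 1.04 in the other libraries. In those other libraries Cd3e was at 0 throughout, and Krt8 was at most 0.0443 CPM. Replicate 2 at 32 µM had 2.46% of its counts on the noncoding gene Gm42418, against 0.0419% to 0.207% elsewhere. A score of short transcripts (189 genes) ran from −0.48 to 0.30 on the log2 scale and differed between replicates of 1 condition. Counts without replicate 1 at 10 µM and at 3.2 µM are given below, as are ranges with each library left out in turn. With the score as a term in the fit, 20 of the 34 genes fell at 10 µM in place of 3, and 25 at 32 µM in place of 19, while the share of all genes that fell went from 1.70% to 5.74% and from 5.72% to 12.1%.

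Each comparison used edgeR's quasi-likelihood test over all 14172 genes with Benjamini-Hochberg adjustment, and a gene is said to have risen or fallen where its adjusted p was below 0.05, at any size of change. Summed, the 34 genes held 0.661% and 0.683% of all counts in the DMSO libraries and 0.451% and 0.441% in DMSO + LPS. With compound **1** the shares were 0.433% and 0.439% (3.2 µM), 0.391% and 0.413% (10 µM), and 0.367% and 0.366% (32 µM). The sums were highest in resting cells, and those at 32 µM lay under all others. With LPS alone 24 of the 34 genes fell and 3 rose, with a median log2 fold change of −0.43. Of all genes tested, 25.8% fell and 25.2% rose in that comparison, with a median of 0.0026. Scaling by library size alone moved that median to −0.20 and the median of the 34 to −0.64, with 2445 genes higher and 5556 lower in place of 3566 and 3654. At 32 µM against DMSO + LPS, 19 of 34 fell and 0 rose (median −0.31), against 5.72% and 4.06% of all genes, and 29 of the 34 estimates were below zero. At 10 µM, 3 of 34 fell and 0 rose (median −0.19), against 1.70% and 0.967% of all genes. At 3.2 µM none of the 34 passed the test in either direction (median −0.018). Of all genes, 0.00% were higher and 0.00% lower, with 600 of 14172 at an unadjusted p below 0.05. DESeq2's Wald test also called 0 of the 34 there, against 0.155% of all genes higher and 0.127% lower. A fit of DMSO + LPS and 3.2 µM alone called 1 higher and 1 lower, against 2.45% and 1.19% of all genes. A dose trend fitted over the 4 LPS conditions, as the log2 change per dose step, was downward in 22 of 34 and upward in 0 (median −0.11 per step), against 6.28% and 4.86% of all genes.

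**Figure D1:**
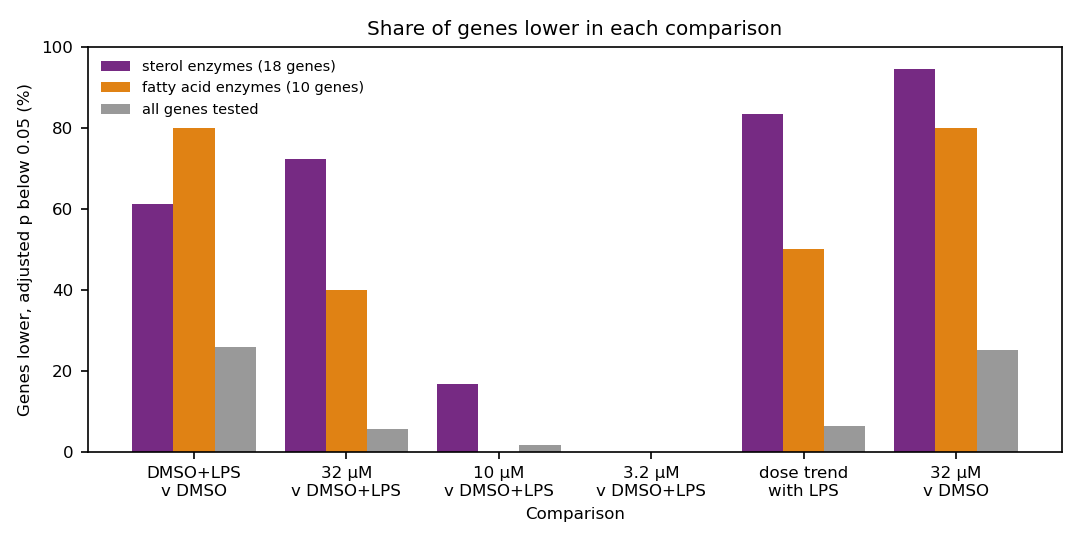
Percent of the sterol enzyme genes (18, purple), the fatty acid enzyme genes (10, orange) and all 14172 genes tested (grey) that were lower at an adjusted p below 0.05 in 6 comparisons, with percent on the y axis from 0. The purple bar is above the orange bar at 32 µM (72.2% and 40.0%), and the orange bar is above the purple bar with LPS alone (80.0% and 61.1%).

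Of 18 sterol enzymes, 11 fell and 1 rose with LPS, and 13 fell at 32 µM. Of 10 fatty acid enzymes, 8 fell and 1 rose with LPS, and 4 fell at 32 µM. Of all genes, 25.8% fell and 25.2% rose with LPS and 5.72% fell at 32 µM. The difference between both groups was not tested. The changes at 32 µM were small. With a change of at least 1.5-fold also required, 1 of the 34 rose and 11 fell with LPS, against 14.6% and 13.6% of all genes. At 32 µM 2 fell by that rule, Acat2 and Insig1, and 0 rose, against 2.91% and 1.27% of all genes. The counts at 32 µM also moved with single libraries. With all libraries in the fit 19 genes fell, and fewer fell without any 1 library of DMSO + LPS, 32 µM or 3.2 µM. The share of all genes that fell, 5.72% with all libraries, was also lower in each of those fits. The 3.2 µM libraries are not part of that comparison. None of the 19 changed sign in any of the 17 alternative fits. Without both libraries that held markers of other cells, 16 fell at 32 µM, 0 at 10 µM and 0 at 3.2 µM, 25 fell and 2 rose with LPS, and the dose trend was downward in 17. Of all genes in that fit, 4.57% fell at 32 µM, 0.214% at 10 µM and 0 at 3.2 µM, 24.96% fell and 24.1% rose with LPS, and 4.85% had a downward trend. In each of 17 alternative fits, 7 genes fell at 32 µM (Acat2, Mvd, Fdps, Cyp51, Msmo1, Dhcr7 and Acly), and the call of the other 12 held in 9 (Sc5d) to 16 (Insig1 and Scd1) of them. The comparisons with LPS and with compound **1** share the DMSO + LPS libraries, so their values for a gene are not independent. The comparison of 32 µM with DMSO does not use those libraries but holds the change with LPS as well as that with the compound, which it cannot tell apart. In it 29 of 34 genes were lower and 0 higher, against 25.1% and 25.7% of all genes, and 29 were also lower without both libraries with other cell markers, against 24.0%.

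**Figure D2:**
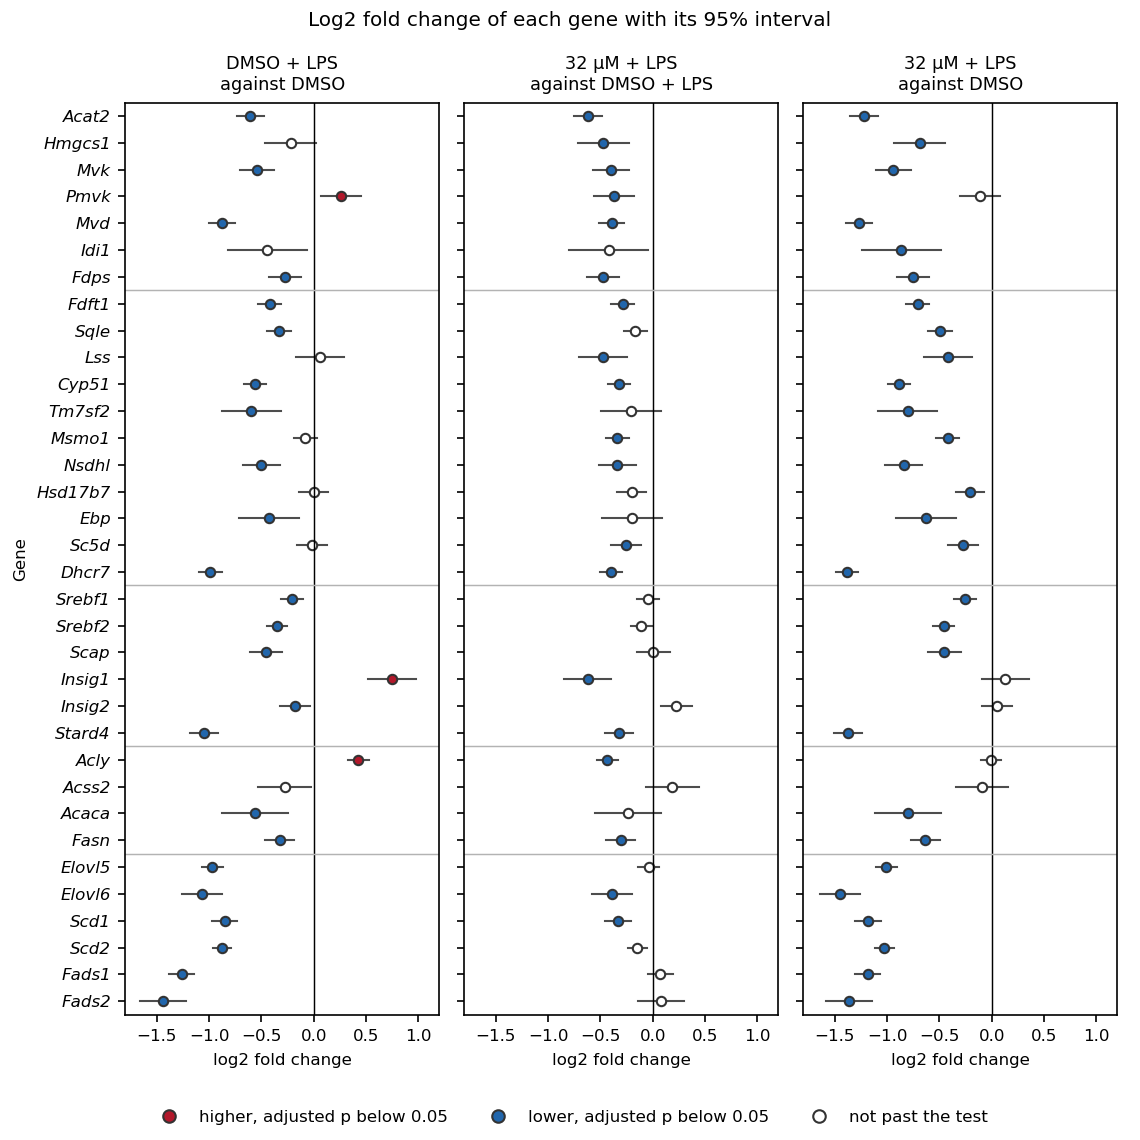
Log2 fold change (x axis) and 95% interval of each of the 34 genes (y axis) in DMSO + LPS against DMSO, 32 µM + LPS against DMSO + LPS, and 32 µM + LPS against DMSO, with filled points where the adjusted p was below 0.05. Most points lie left of zero in each panel, and the desaturases and elongases at the bottom are far left with LPS but near zero at 32 µM, apart from Elovl6 and Scd1.

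The sequence just upstream of the transcription start was read for 27 of the 34 genes from RefSeq on GRCm38.p6, as the 250 bases before each start. The others were Fdps, Fdft1, Scd1, Fads1, Scd2, Stard4 and Sqle. A window is shown for a gene that fell at 32 µM (Hmgcs1, chr13:119690101-119690350, plus strand), for the gene with the largest rise with LPS (Insig1, chr5:28071162-28071411, plus strand), for fatty acid synthase (Fasn, chr11:120824548-120824797, minus strand) and for the gene with the largest fall with LPS (Fads2, chr19:10101504-10101753, minus strand). Capitals mark matches on either strand to the sterol response element TCACNCCAC, the CCAAT box (ATTGG on the other strand) and the E-box CACGTG.
Hmgcs1: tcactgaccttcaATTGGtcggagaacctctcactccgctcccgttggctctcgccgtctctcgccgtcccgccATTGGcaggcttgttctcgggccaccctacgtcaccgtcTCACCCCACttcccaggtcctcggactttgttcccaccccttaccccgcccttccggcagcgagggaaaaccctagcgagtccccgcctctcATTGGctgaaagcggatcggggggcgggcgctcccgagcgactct
Insig1: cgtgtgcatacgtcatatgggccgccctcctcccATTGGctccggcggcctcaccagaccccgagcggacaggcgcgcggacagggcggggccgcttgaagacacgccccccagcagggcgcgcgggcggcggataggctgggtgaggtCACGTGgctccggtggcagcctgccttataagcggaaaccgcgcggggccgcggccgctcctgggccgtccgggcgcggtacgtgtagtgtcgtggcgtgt
Fasn: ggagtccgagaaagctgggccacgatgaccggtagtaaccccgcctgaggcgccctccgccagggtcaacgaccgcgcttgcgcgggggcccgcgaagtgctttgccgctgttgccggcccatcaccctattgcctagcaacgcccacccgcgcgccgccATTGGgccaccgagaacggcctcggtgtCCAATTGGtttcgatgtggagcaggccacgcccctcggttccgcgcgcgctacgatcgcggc
Fads2: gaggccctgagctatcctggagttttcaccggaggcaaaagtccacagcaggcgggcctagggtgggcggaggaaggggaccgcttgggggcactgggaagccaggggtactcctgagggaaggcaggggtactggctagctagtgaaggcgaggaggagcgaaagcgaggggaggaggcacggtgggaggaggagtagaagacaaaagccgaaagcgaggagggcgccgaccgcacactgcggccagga
The exact letters TCACNCCAC, a sterol response element to which SREBP proteins are known to bind, were found in 1 of 27 genes, Hmgcs1. They ran from base −137 to base −129, and were in 1.22% of all 27025 genes with a window. Sites that differ from these letters were not searched, so the count does not show which genes lack a site for SREBP. CCAAT, the letters bound by nuclear factor Y, was in 21 of 27 (77.8%) against 37.5% of all genes. CACGTG was in 6 of 27 (22.2%) against 6.86%, and the GC box GGGCGG in 22 of 27 (81.5%) against 35.4%. The 27025 genes were not limited to the 14172 tested, whereas all 34 were tested, and shares among tested genes were not computed. A gene with several starts counted where any of its windows held the letters. CCAAT was held by 12 of the 15 genes with a window that fell at 32 µM and by 9 of the 12 others. Fads2 had a GC box and none of the other letters in this window, and Insig1 had a CCAAT box, an E-box and 3 GC boxes. No motif overlapped another in these 4 windows except the neighbouring CCAAT matches of Fasn, which share bases.

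The mevalonate pathway starts from cytosolic acetyl-CoA, and 6 of its 7 genes fell at 32 µM (5.72% of all genes), with 4 lower and 1 higher with LPS (25.8% and 25.2%). Acat2 (ENSMUSG00000023832, chr17:12942890-12960747, minus strand), the cytosolic thiolase that joins 2 acetyl-CoA units, was 75.7 and 74.6 CPM in resting cells, 49.5 and 49.3 with LPS alone, 43.6 and 46.0 with 3.2 µM, 34.6 and 38.0 with 10 µM and 32.4 and 32.1 with 32 µM. Its libraries stepped down at each dose, and no condition overlapped the next. It fell by 0.61 on the log2 scale with LPS (SE 0.057, adjusted p = 4.86e-05), and at 32 µM it was 1.53-fold lower than in DMSO + LPS (log2 −0.61, SE 0.057, adjusted p = 0.00034). At 10 µM the log2 change was −0.44 (adjusted p = 0.00752), and Acat2 was 1 of the 3 genes past the test there, a call that held in 13 of 17 alternatives. Acat3, a close mouse relative of Acat2, could share reads with it.

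Hmgcs1 (ENSMUSG00000093930, chr13:119690379-119708260, plus strand), the cytosolic HMG-CoA synthase, was 326 and 369 CPM in resting cells, 300.0 and 297 with LPS alone, 287 and 291 with 3.2 µM, 218 and 262 with 10 µM and 199 and 232 with 32 µM. The LPS change of −0.22 (95% interval −0.46 to 0.025) did not pass the test, whereas the libraries at 10 and 32 µM lay under those of DMSO + LPS and overlapped each other. At 32 µM the log2 change was −0.47 (SE 0.11, adjusted p = 0.0285). Mvk, mevalonate kinase, was 43.6 and 39.8 CPM in resting cells, 27.8 and 29.6 with LPS alone, 26.8 and 28.0 with 3.2 µM, 25.9 and 24.2 with 10 µM and 22.5 and 20.9 with 32 µM, and fell with LPS (−0.54, adjusted p = 0.00036) and at 32 µM (−0.40, adjusted p = 0.0110). Pmvk, phosphomevalonate kinase, was 29.6 and 26.9 CPM in resting cells, 32.9 and 34.7 with LPS alone, 34.7 and 32.9 with 3.2 µM, 29.4 and 28.0 with 10 µM and 27.9 and 24.3 with 32 µM. The LPS libraries of Pmvk were above those of DMSO and the 32 µM libraries under those of LPS. Its log2 changes were 0.26 with LPS (adjusted p = 0.0283), −0.37 at 32 µM (adjusted p = 0.0267) and −0.11 for 32 µM against DMSO, which did not pass the test. The rise of Pmvk with LPS held in 13 of 17 alternatives and its fall at 32 µM in 10.

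Mvd (ENSMUSG00000006517, chr8:122433601-122443422, minus strand), the decarboxylase that makes isopentenyl diphosphate, was 124 and 121 CPM in resting cells, 66.1 and 67.6 with LPS alone, 66.8 and 65.3 with 3.2 µM, 59.8 and 57.5 with 10 µM and 53.1 and 48.8 with 32 µM. DMSO was far above all LPS conditions, 3.2 µM overlapped DMSO + LPS, and 10 and 32 µM lay below in turn. Mvd fell by 0.88 with LPS (SE 0.053, adjusted p = 3.58e-06) and by 0.39 at 32 µM (SE 0.053, adjusted p = 0.00251). Idi1, the isomerase of that product, was 81.9 and 95.7 CPM in resting cells, 65.8 and 64.9 with LPS alone, 61.2 and 62.1 with 3.2 µM, 40.5 and 58.4 with 10 µM and 44.5 and 53.1 with 32 µM. Its replicates were the most uneven of the pathway, and neither the LPS change (−0.44, adjusted p = 0.0524) nor that at 32 µM (−0.42, 95% interval −0.80 to −0.043) passed the test. Fdps (ENSMUSG00000059743, chr3:89093588-89101959, minus strand), farnesyl diphosphate synthase, was 325 and 288 CPM in resting cells, 251 and 256 with LPS alone, 237 and 246 with 3.2 µM, 199 and 200.0 with 10 µM and 189 and 176 with 32 µM. The libraries at 10 µM lay under both those of DMSO + LPS and those of 3.2 µM. Fdps fell with LPS (−0.27, adjusted p = 0.00823), at 10 µM (−0.34, adjusted p = 0.0363) and at 32 µM (−0.47, adjusted p = 0.00274). At 10 µM the call of Fdps held in 7 of 17 alternatives.

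From squalene to cholesterol, 7 of 11 genes fell with LPS and 7 fell at 32 µM, and all 11 were lower at 32 µM than in DMSO (25.8%, 5.72% and 25.1% of all genes). Fdft1, squalene synthase, was 116 and 115 CPM in resting cells, 84.2 and 87.9 with LPS alone, 84.9 and 88.8 with 3.2 µM, 76.1 and 73.3 with 10 µM and 69.3 and 71.8 with 32 µM, with changes of −0.42 with LPS and −0.29 at 32 µM (adjusted p = 0.000132 and 0.00664). Its gene body overlaps that of Ctsb, a lysosomal protease on the opposite strand with a mean of 3414 CPM, and use of strand in the counting is not stated. Sqle, squalene epoxidase, was 278 and 296 CPM in resting cells, 232 and 224 with LPS alone, 224 and 227 with 3.2 µM, 206 and 215 with 10 µM and 201 and 206 with 32 µM. Sqle fell with LPS (−0.33, adjusted p = 0.000684), and its change at 32 µM was −0.17 (95% interval −0.28 to −0.052, adjusted p = 0.0814). Lss, lanosterol synthase, was 102 and 93.3 CPM in resting cells, 103 and 99.9 with LPS alone, 99.4 and 101 with 3.2 µM, 86.4 and 75.0 with 10 µM and 79.9 and 66.4 with 32 µM. DMSO, DMSO + LPS and 3.2 µM were at 1 level, and 10 and 32 µM lay below them all. The change of Lss with LPS was 0.060 (95% interval −0.17 to 0.29) and at 32 µM it fell by 0.47 (SE 0.10, adjusted p = 0.0206).

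Cyp51, the lanosterol demethylase, was 262 and 267 CPM in resting cells, 178 and 181 with LPS alone, 176 and 183 with 3.2 µM, 153 and 160.1 with 10 µM and 142 and 145 with 32 µM. Every library at 10 and 32 µM was under every library of DMSO + LPS, with changes of −0.56 with LPS (adjusted p = 1.88e-05) and −0.32 at 32 µM (adjusted p = 0.00294). The gene body of Cyp51 overlaps Akap9 on the opposite strand, at 42.0% of the level of Cyp51. Msmo1, the methylsterol monooxygenase, was 264.5 and 272 CPM in resting cells, 253 and 254 with LPS alone, 248 and 247 with 3.2 µM, 218 and 224 with 10 µM and 194 and 208 with 32 µM. With LPS the change of Msmo1 was −0.081 (95% interval −0.19 to 0.029), and at 32 µM it fell by 0.34 (adjusted p = 0.00314). Nsdhl, a sterol dehydrogenase encoded on the X chromosome, was 57.3 and 51.1 CPM in resting cells, 38.3 and 38.4 with LPS alone, 39.2 and 38.4 with 3.2 µM, 32.8 and 29.4 with 10 µM and 31.3 and 29.3 with 32 µM, and fell with LPS (−0.50, adjusted p = 0.000802) and at 32 µM (−0.34, adjusted p = 0.0291). Sc5d, a sterol desaturase, was 82.4 and 88.1 CPM in resting cells, 84.8 and 84.1 with LPS alone, 84.1 and 84.2 with 3.2 µM, 72.1 and 77.3 with 10 µM and 67.3 and 73.9 with 32 µM. DMSO and DMSO + LPS overlapped, and the 32 µM libraries were below both (−0.26, adjusted p = 0.0382).

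Dhcr7 (ENSMUSG00000058454, chr7:143823145-143848410, plus strand), the reductase of the last step to cholesterol, was 85.2 and 82.9 CPM in resting cells, 42.6 and 42.2 with LPS alone, 41.6 and 41.5 with 3.2 µM, 35.5 and 36.1 with 10 µM and 33.0 and 31.4 with 32 µM. Resting cells stood far above every LPS library, and 10 and 32 µM each stood below DMSO + LPS without overlap. Dhcr7 was 1.98-fold lower with LPS (log2 −0.99, SE 0.046, adjusted p = 7.82e-07). At 10 µM the further change was −0.24 (adjusted p = 0.0362) and at 32 µM −0.40 (SE 0.046, adjusted p = 0.00114). The call of Dhcr7 at 10 µM held in 4 of 17 alternatives, and that at 32 µM in all of them. The remaining genes of this segment did not pass the test at 32 µM. Tm7sf2, a sterol reductase and the lowest of the sterol enzymes, was 7.87 and 7.14 CPM in resting cells, 4.91 and 5.03 with LPS alone, 5.03 and 5.37 with 3.2 µM, 3.78 and 4.20 with 10 µM and 4.72 and 3.87 with 32 µM. Tm7sf2 fell with LPS (−0.60, adjusted p = 0.00407), at 32 µM its change was −0.21 (95% interval −0.50 to 0.080), and it overlaps Vps51, a neighbour on the same strand at 28.1 CPM. Ebp, the sterol isomerase, was 46.8 and 40.1 CPM in resting cells, 30.5 and 34.1 with LPS alone, 33.0 and 32.7 with 3.2 µM, 32.9 and 26.3 with 10 µM and 29.6 and 26.7 with 32 µM, lower with LPS (−0.43, adjusted p = 0.0193) and at −0.20 for 32 µM (95% interval −0.49 to 0.085). Hsd17b7, a ketone reductase of the pathway, was 109 and 115 CPM in resting cells, 115 and 109 with LPS alone, 105 and 104 with 3.2 µM, 92.0 and 98.3 with 10 µM and 94.0 and 101 with 32 µM. It did not pass the test with LPS (−0.0016, 95% interval −0.14 to 0.13) or at 32 µM (−0.20, adjusted p = 0.0743), but its dose trend did (−0.075 per step, adjusted p = 0.0391), a call that held in 9 of 17 alternatives.

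**Figure D3:**
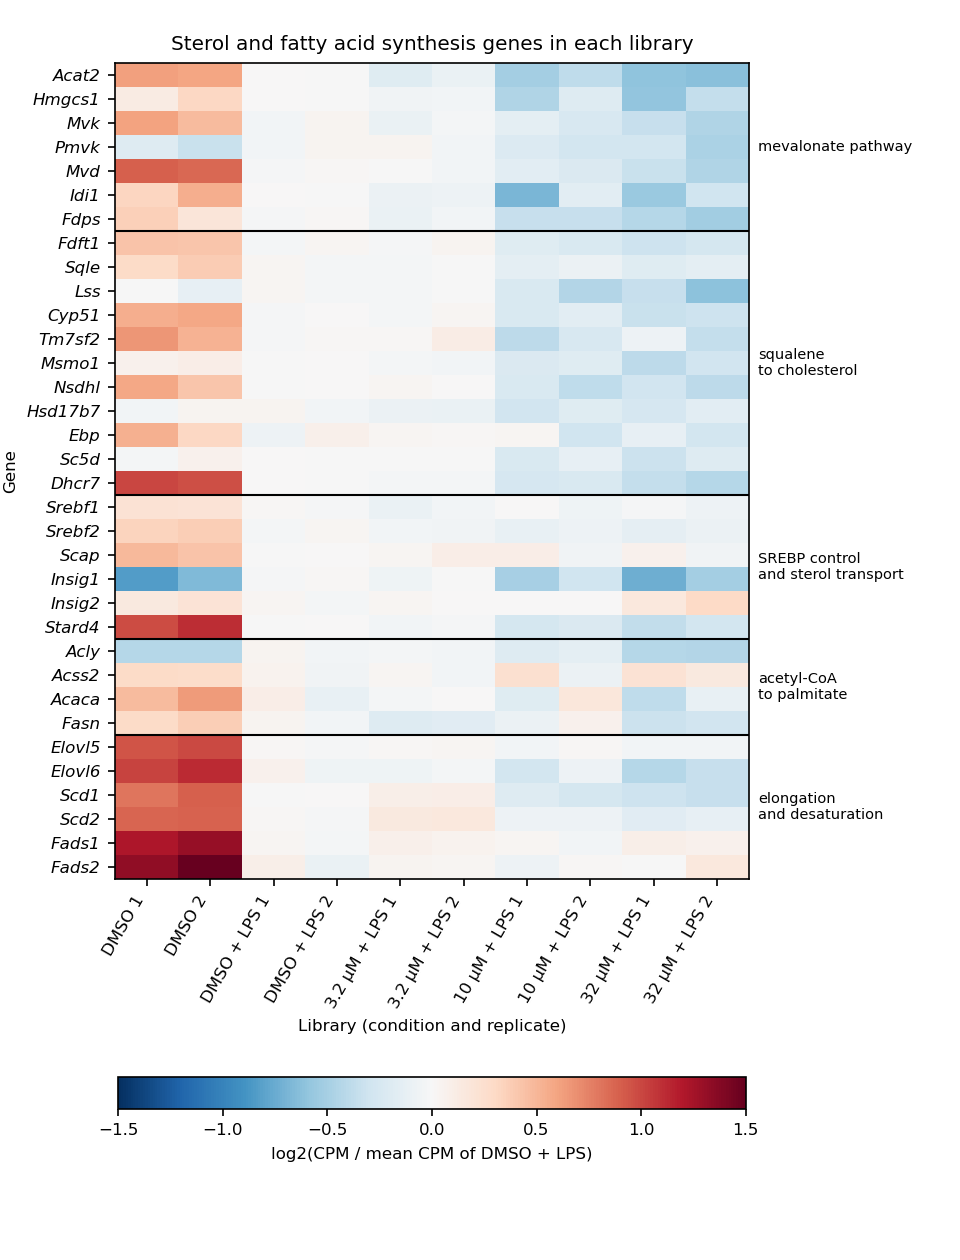
Log2 ratio of CPM to the mean of DMSO + LPS (color, −1.5 to 1.5) for the 34 genes (rows, by role) in each of the 10 libraries (columns). The DMSO columns are red for most genes and blue for Insig1, Acly and Pmvk, and the 10 and 32 µM columns turn blue for most sterol enzymes.

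Among the regulators, the transcription factors moved little at 32 µM. Srebf1, which encodes the SREBP with the larger part in fatty acid synthesis, was 143 and 142 CPM in resting cells, 124 and 122 with LPS alone, 115 and 119 with 3.2 µM, 124 and 118 with 10 µM and 121 and 117 with 32 µM. Srebf2, the main SREBP of sterol synthesis, was 302 and 308 CPM in resting cells, 235 and 243 with LPS alone, 233 and 230.2 with 3.2 µM, 221 and 226 with 10 µM and 218 and 226 with 32 µM. Both fell with LPS (−0.21, adjusted p = 0.00534, and −0.35, adjusted p = 0.000229). At 32 µM the changes were −0.046 (95% interval −0.15 to 0.059) and −0.11 (95% interval −0.21 to −0.0086), and neither passed the test. These are transcript levels, and processing of the SREBP proteins was not measured. The gene body of Srebf1 overlaps Rai1 on the opposite strand, at 29.5% of its level. Scap, the SREBP escort, was 76.2 and 73.6 CPM in resting cells, 54.5 and 54.7 with LPS alone, 55.6 and 58.7 with 3.2 µM, 58.3 and 52.5 with 10 µM and 57.1 and 52.5 with 32 µM, and fell with LPS (−0.46, adjusted p = 0.000651). The libraries of Scap at 32 µM fell on both sides of those of DMSO + LPS (0.0058, 95% interval −0.15 to 0.16).

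Insig1 (ENSMUSG00000045294, chr5:28071363-28078662, plus strand), which retains SCAP in the endoplasmic reticulum and is itself a known SREBP target, was 110.4 and 126 CPM in resting cells, 195 and 201 with LPS alone, 190.0 and 197 with 3.2 µM, 141 and 161 with 10 µM and 119 and 139 with 32 µM. LPS raised it above both DMSO libraries, 3.2 µM overlapped DMSO + LPS, and 32 µM overlapped DMSO. Insig1 rose 1.68-fold with LPS (log2 0.75, SE 0.10, adjusted p = 0.000331). At 32 µM it was 1.54-fold lower than in DMSO + LPS (log2 −0.62, SE 0.10, adjusted p = 0.00525), the change with the largest size of the 34, and against DMSO the difference was 0.13 (95% interval −0.10 to 0.35). Insig2, its paralog, was 29.4 and 30.7 CPM in resting cells, 27.0 and 26.1 with LPS alone, 27.2 and 26.6 with 3.2 µM, 26.6 and 26.7 with 10 µM and 29.5 and 32.7 with 32 µM. The libraries at 32 µM were above those of DMSO + LPS, with a change of 0.23 (95% interval 0.083 to 0.37, adjusted p = 0.0632), which did not pass the test. With LPS Insig2 fell by 0.18 (adjusted p = 0.0439), a call kept in 4 of 17 alternatives. Stard4 (ENSMUSG00000024378, chr18:33199355-33213862, minus strand), a soluble sterol carrier, was 139 and 152 CPM in resting cells, 69.7 and 70.5 with LPS alone, 68.0 and 69.3 with 3.2 µM, 58.5 and 60.4 with 10 µM and 54.2 and 58.0 with 32 µM. It was 2.07-fold lower with LPS (SE of log2 0.058, adjusted p = 2.06e-06) and fell at 32 µM (−0.32, adjusted p = 0.0105).

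Of the 4 genes that lead from acetyl-CoA to palmitate, 2 fell and 1 rose with LPS (25.8% and 25.2% of all genes), and 2 fell at 32 µM (5.72% of all genes). Acly (ENSMUSG00000020917, chr11:100476353-100528000, minus strand), the ATP citrate lyase that supplies cytosolic acetyl-CoA to both pathways, was 448 and 451 CPM in resting cells, 621 and 588 with LPS alone, 593 and 588 with 3.2 µM, 529 and 546 with 10 µM and 449 and 445 with 32 µM. DMSO and 32 µM lay together at the bottom, DMSO + LPS and 3.2 µM at the top, and 10 µM between them. Acly rose with LPS (0.43, SE 0.043, adjusted p = 7.42e-05) and fell at 32 µM (−0.43, SE 0.043, adjusted p = 0.000475). The difference between 32 µM and DMSO was −0.0068 (95% interval −0.11 to 0.093). Fasn (ENSMUSG00000025153, chr11:120805846-120824547, minus strand), fatty acid synthase, was 554 and 585 CPM in resting cells, 467 and 441 with LPS alone, 398 and 403 with 3.2 µM, 429 and 476 with 10 µM and 363 and 371 with 32 µM. The 10 µM libraries fell on both sides of DMSO + LPS, and those at 3.2 and 32 µM were lower. Fasn fell with LPS (−0.33, adjusted p = 0.00254) and at 32 µM (−0.31, adjusted p = 0.0169), with −0.18 at 3.2 µM (95% interval −0.32 to −0.041) and −0.0060 at 10 µM, neither past the test.

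Acaca, the acetyl-CoA carboxylase that commits carbon to fatty acids, was 106 and 118 CPM in resting cells, 81.6 and 70.1 with LPS alone, 74.3 and 76.3 with 3.2 µM, 67.1 and 85.1 with 10 µM and 58.3 and 70.3 with 32 µM. Replicates of Acaca were uneven in all LPS conditions except 3.2 µM, and the LPS change of −0.56 passed the test (adjusted p = 0.00909) while that at 32 µM did not (−0.24, 95% interval −0.55 to 0.076). Acss2, which makes acetyl-CoA from acetate, was 11.0 and 10.9 CPM in resting cells, 9.38 and 8.67 with LPS alone, 9.19 and 8.80 with 3.2 µM, 10.7 and 8.52 with 10 µM and 10.5 and 10.0 with 32 µM. It passed no comparison, with −0.28 for LPS (95% interval −0.53 to −0.027) and 0.19 for 32 µM (95% interval −0.068 to 0.44), and it overlaps Gss on the opposite strand at 26.7 CPM.

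All 6 elongases and desaturases fell with LPS (25.8% of all genes), with a median of −1.02 and a range from −1.44 to −0.85. At 32 µM 2 of them fell (5.72% of all genes). Fads2 (ENSMUSG00000024665, chr19:10062765-10101746, minus strand), the desaturase of the first step to long polyunsaturated fatty acids, was 248 and 288 CPM in resting cells, 105 and 92.5 with LPS alone, 102 and 101 with 3.2 µM, 93.8 and 100.3 with 10 µM and 98.5 and 110.3 with 32 µM. Fads1 (ENSMUSG00000010663, chr19:10182888-10196877, plus strand), the desaturase of the later step, was 332 and 352 CPM in resting cells, 146 and 139.5 with LPS alone, 151 and 148 with 3.2 µM, 146 and 139 with 10 µM and 152 and 149 with 32 µM. In both genes the resting libraries stood far above every LPS library, and the LPS conditions lay close together. Fads2 was 2.71-fold lower with LPS (log2 −1.44, SE 0.095, adjusted p = 5.98e-06), and Fads1 2.39-fold lower (log2 −1.26, SE 0.052, adjusted p = 4.03e-07). At 32 µM the changes were 0.080 (95% interval −0.14 to 0.30) and 0.075 (95% interval −0.043 to 0.19). Elovl5, an elongase of polyunsaturated fatty acids, was 111 and 115 CPM in resting cells, 58.4 and 56.8 with LPS alone, 58.4 and 58.8 with 3.2 µM, 56.1 and 58.1 with 10 µM and 56.1 and 56.2 with 32 µM, with −0.97 for LPS (adjusted p = 6.93e-07) and −0.037 for 32 µM (95% interval −0.14 to 0.065).

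Elovl6 (ENSMUSG00000041220, chr3:129532355-129638495, plus strand), which lengthens palmitate to stearate, was 67.1 and 71.8 CPM in resting cells, 34.6 and 31.6 with LPS alone, 31.6 and 32.3 with 3.2 µM, 27.4 and 31.5 with 10 µM and 24.6 and 26.1 with 32 µM. The 32 µM libraries of Elovl6 were the lowest of all, under those at 10 µM. It fell with LPS (−1.07, SE 0.081, adjusted p = 1.44e-05) and at 32 µM (−0.39, SE 0.082, adjusted p = 0.0224). Scd1, a stearoyl-CoA desaturase that makes oleate, was 61.1 and 65.1 CPM in resting cells, 34.8 and 35.1 with LPS alone, 37.2 and 37.4 with 3.2 µM, 30.6 and 29.1 with 10 µM and 28.1 and 27.4 with 32 µM. Scd2, its paralog and the gene with the highest level per kilobase of the 34 in resting cells, was 749 and 759 CPM in resting cells, 415 and 405 with LPS alone, 456 and 457 with 3.2 µM, 388 and 390.3 with 10 µM and 365 and 375 with 32 µM. For both, 3.2 µM was above DMSO + LPS, while 10 and 32 µM were below it in turn. Both fell with LPS (−0.85, adjusted p = 4.21e-06, and −0.88, adjusted p = 5.8e-07). At 32 µM Scd1 fell (−0.33, adjusted p = 0.00573), and Scd2 changed by −0.15 (95% interval −0.24 to −0.059, adjusted p = 0.0523), which did not pass. Between 3.2 and 10 µM these were the only 2 of 34 genes past the test, both lower at 10 µM (−0.32, adjusted p = 0.0424, and −0.23, adjusted p = 0.0466), against 0.649% of all genes lower and 0.254% higher. No member passed there without both libraries that held markers of other cells, where 3 of 14475 genes were lower. Scd1 and Scd2 are similar in sequence, and reads that match both could be split between them.

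**Figure D4:**
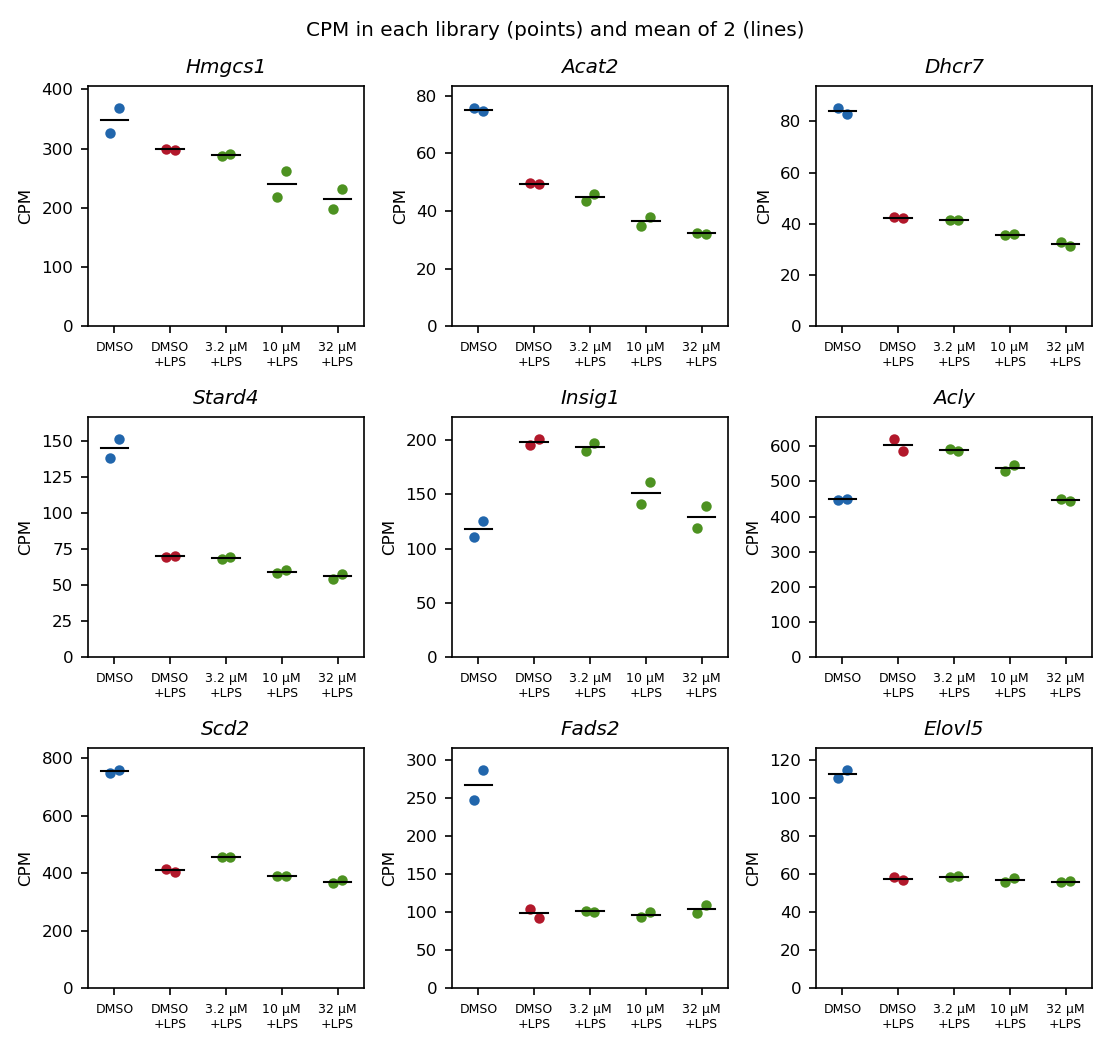
CPM (y axis, from 0) in each library (points, 2 per condition) and the mean of 2 (lines) for 9 genes in the 5 conditions (x axis). Hmgcs1, Acat2, Dhcr7 and Stard4 step down with dose, Insig1 and Acly are raised by LPS and near the resting level at 32 µM, and Scd2, Fads2 and Elovl5 differ mainly between DMSO and the LPS conditions.

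Between the doses, few genes differed by the test. From 10 to 32 µM, 2 of 34 fell and 0 rose, against 1.95% and 0.804% of all genes, and both make palmitate or its precursor: Acly (−0.26, adjusted p = 0.0171) and Fasn (−0.30, adjusted p = 0.0480). None passed when both libraries with other cell markers were left out, where 0.946% of all genes fell. Relative to DMSO + LPS, the 18 sterol enzymes had medians of −0.019 at 3.2 µM, −0.24 at 10 µM and −0.36 at 32 µM, and all 18 estimates were below zero at 10 and 32 µM. For the 10 fatty acid enzymes the medians were 0.011, −0.018 and −0.19. The dose trend was steepest in Insig1 (−0.22 per step, SE 0.031, adjusted p = 0.00255) and Acat2 (−0.21, SE 0.018, adjusted p = 0.000176). It was near zero in Fads1 (0.016, 95% interval −0.022 to 0.053), Fads2 (0.018, 95% interval −0.051 to 0.086) and Elovl5 (−0.015, 95% interval −0.047 to 0.017). The number of the 34 genes lower at 10 µM moved with the fit, as did that of all genes, with 0 (0.225% of all genes) in the compared conditions alone, 13 (3.06%) by DESeq2's Wald test and 20 (5.74%) with the short-transcript score as a term.

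Per kilobase of exon, the levels of the 34 genes in DMSO cells spanned from 1.08 CPM per kb (Acss2) to 138 (Scd2). After Scd2 came Acly at 85.1, Fads2 at 81.3 and Hmgcs1 at 75.6 CPM per kb. At 32 µM the order had changed, with Acly first at 84.7 and Scd2 at 67.8 CPM per kb, and Fads2 down at 31.7. These are levels, scaled for exon length and not for how evenly a transcript was covered.

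Of 35 further genes of the same pathways, 29 could be tested. With LPS 8 rose and 12 fell, against 25.2% and 25.8% of all genes. Lbr, a sterol reductase of the nuclear envelope, fell by 1.28, and Lpin1, a phosphatidate phosphatase, fell by 1.00. Acat1, the mitochondrial thiolase, fell by 0.88 (all log2). At 32 µM 5 of the 29 fell and 1 rose, against 5.72% and 4.06% of all genes. Slc25a1, the mitochondrial citrate carrier, fell by 0.44 (adjusted p = 0.00721), Aacs, an acetoacetyl-CoA synthetase, by 0.38 (adjusted p = 0.000503) and Acat1 by 0.34 (adjusted p = 0.0112). The gene that rose was Me1, the malic enzyme that supplies NADPH, at 73.4 and 78.2 CPM in resting cells, 109.7 and 109 with LPS alone, 102 and 110.2 with 3.2 µM, 113 and 129 with 10 µM and 143 and 162 with 32 µM, a change of 0.48 at 32 µM (adjusted p = 0.00920). At 10 µM Aacs was the only 1 of 29 past the test (−0.23, adjusted p = 0.0219), against 1.70% of all genes lower.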

How the data were processed

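The authors deposited raw counts, whole numbers of reads per mouse gene, in 1 table for all 10 libraries. Libraries were made with poly(A) selection and a directional kit and sequenced as paired reads. The submitters' processing notes name Trimmomatic, FastQC, STAR, DESeq2 and the build mm10, with no versions, and the counting tool, its annotation and its use of strand are not given in the sources used here. Symbols and positions came from GENCODE on GRCm38, the same assembly as mm10, and 42548 of 43432 identifiers had a symbol. Authors' comparison tables were not used.

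Libraries were grouped by the treatment label. Counts were scaled by TMM, limited to the 14172 genes that filterByExpr kept (min.count 10), and tested by edgeR 4.0.16 in R 4.3.3 with glmQLFit and glmQLFTest, with 1 mean per condition over all 10 libraries (5 residual degrees of freedom). P-values were adjusted by Benjamini-Hochberg over all genes tested in each of 8 comparisons. For a single value, an exact permutation over 2 and 2 libraries gives 0.333 at the least, and none was run. SE is the log2 fold change divided by the root of the F statistic, and intervals are 95%. Alternatives used DESeq2 1.42.0 (size factors and Wald test), no count filter, the compared conditions alone, a replicate block, a 1.5-fold rule, each library left out in turn and, chosen after seeing the data, the short-transcript score as a term and both libraries with other cell markers left out. The fit was checked on simulated data. Between 45966803 and 58976377 counts per library were available, and counting error covers reads only, not molecules. Every one of the 34 genes was described with its values. Of the 35 further pathway genes, at most 4 past the test with the largest changes were named per comparison, besides Fads3 and Elovl1. The genes and lists were chosen with earlier results of these data known, so none of the patterns is independent support for another. Values of some further genes of the pathway list that the naming rule selects are not reported here.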

Additional observations from a re-analysis of the deposited data

How the results depend on the processing

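With 2 libraries per condition, counts of genes near the threshold moved with the fit and with single libraries, above all at 10 µM, and the cause was not tested. Each library left out in turn gave, with LPS, 2 to 3 of the 34 genes higher and 21 to 27 lower. At 32 µM it gave 0 to 1 higher (1, Insig2, without 32 µM replicate 1) and 7 to 23 lower, and at 10 µM 0 to 3 lower. It gave 0 to 2 lower from 10 to 32 µM, 0 to 1 lower from 3.2 to 10 µM, 27 to 29 lower for 32 µM against DMSO, and 0 to 1 higher and 12 to 23 lower in the dose trend (12 and 13 without DMSO + LPS replicates 1 and 2).

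A 1.5-fold rule left 1 gene higher and 11 lower with LPS, 2 lower at 32 µM, 2 in the dose trend and 0 at 10 µM and between the doses. DESeq2's Wald test gave 13 lower at 10 µM (3.06% of all genes) and 9 lower from 3.2 to 10 µM (1.67% of all genes). The compared conditions alone gave 0 lower at 10 µM (0.225% of all genes) and 1 higher and 1 lower at 3.2 µM (2.45% and 1.19%). Between the doses they gave 0 (0.0374% of all genes lower from 10 to 32 µM and 0 from 3.2 to 10 µM). With the short-transcript score as a term, 20 were lower at 10 µM, 9 from 10 to 32 µM and 19 from 3.2 to 10 µM, and 1 was higher in each of 32 µM, 3.2 µM, 10 against 3.2 µM, 32 µM against DMSO and the trend. DESeq2's size factors gave 1 lower from 10 to 32 µM (1.90% of all genes), and no count filter 1 lower from 3.2 to 10 µM (0.547% of all genes). Without both libraries that held markers of other cells, 0 were lower at 10 µM and between the doses.

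Deviations of same-numbered libraries correlated at 0.30 to 0.83 in the 6 pairs among DMSO and the 3 doses, and at −0.42 to −0.17 in the 4 pairs with DMSO + LPS, so the numbers were not taken to pair the libraries. A replicate block gave 7 lower at 10 µM in place of 3, with 2.04% of all genes lower in place of 1.70%. It moved no other count by over 1.5 times.

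Alternatives for single genes were computed for all 34 with LPS, at 32 µM and in the trend, and for 19 at 10 µM. Among these, the genes whose sign reversed had not passed the test. With LPS these were Lss (−0.052 with the score, −0.017 to 0.12 in leave-one-out), Hsd17b7 (0.0083 with size factors, 0.0010 with no filter, 0.0085 with Wald, 0.017 with the compared conditions, 0.060 with the score, −0.046 to 0.036 in leave-one-out) and Sc5d (0.0045 with the compared conditions, 0.056 with the score, −0.064 to 0.018 in leave-one-out). At 32 µM Scap gave −0.012 with no filter, −0.0035 with the compared conditions and −0.056 to 0.064 in leave-one-out, and Fads2 −0.0087 to 0.17 in leave-one-out. At 10 µM Fasn gave 0.0052 with the score, 0.068 without both libraries, and −0.11 to 0.068 in leave-one-out. In the trend Scap gave 0.0056 with the score and −0.021 to 0.015 in leave-one-out, and Fads2 −0.0089 to 0.046.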
